A study of Caenorhabditis elegans with 6 samples.

Results

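The genes described here encode subunits of the vacuolar H+-ATPase (V-ATPase) and hydrolases and membrane proteins of the lysosome in *Caenorhabditis elegans*. They were chosen by gene name in the array's platform annotation, with earlier results of these data known. The rule took in the *vha*, *scav*, *gba*, *aagr*, *asah* and *asm* gene classes together with *unc-32*, *lmp-1*, *cup-5*, *ncr-1*, *ncr-2*, *aman-1*, *hex-1*, *gana-1*, *nuc-1* and *ctns-1*, and required a probe set that names 1 gene. It gave 43 genes of 17118, of which 19 were V-ATPase subunit genes, 13 were hydrolase genes and 11 were genes of membrane proteins. No *gba* gene was analysed here. The probe sets for *vha-2* and *vha-3* name both genes, so these are not among the 43 and are given separately.

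Total RNA of the wild-type strain N2 was measured at 2 stages, with 3 Affymetrix arrays each. For the fed L1 group, eggs of bleached gravid adults hatched during 24 h in M9 buffer at 20 °C, and the synchronous first-stage larvae then fed for 3 h in S medium on *Escherichia coli* HB101 (10 mg/mL), at 10 worms per µL. The mixed embryo group came from bleached gravid N2 adults grown on agar with the same bacteria, and its arrays were a re-analysis of an earlier series, per the labels. Titles of the embryo samples carry XX and share 1 further tag, and those of the L1 samples have neither. Stage, hatching without food, feeding and array set therefore cannot be told apart, and every difference below includes all of them. Whole animals were measured, so more cells of a type and more RNA per cell cannot be told apart either. One label of the L1 samples, the source name, speaks of embryos, but 3 others (title, description and stage) give L1.

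The V-ATPase is a rotary proton pump. Its cytosolic V1 sector hydrolyses ATP and its membrane V0 sector carries protons, which acidifies lysosomes and other compartments and, in some epithelia, the space outside the cell. Lysosomal hydrolases need this acid to break down glycans, lipids, nucleic acids and proteins, and in the worm much of this takes place in the intestine, whose gut granules are lysosome-related organelles. Many V-ATPase subunits are encoded by a single gene in the worm, whereas the a subunit of V0 has 4 genes that are known for use in different tissues.

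Values are RMA expression values on the log2 scale, and a difference is always fed L1 minus mixed embryo. Array medians lay between 6.08 and 6.11 for L1 and between 6.01 and 6.04 for embryos. Over probe sets, whose values are not independent of each other, r was 0.9925 or more between arrays of a stage and 0.7905 or less between stages. All 6 early embryo markers fell in L1, with per-array means of 6.03 to 6.14 against 9.64 to 9.87, and *pes-10* was at the level of foreign controls in L1. Of 7 yolk and sperm genes that adult carry-over could add, 1 rose (*msp-31*, 7.10 in L1 and 5.14 in embryos) and 6 did not pass the test, though 4 of those were lower after the centring on ribosomal protein genes described below. The probe set of *msp-31* may match related sequences and was at foreign control level on all embryo arrays. Per-array means of the 7 genes were 5.32 to 5.38 in L1 and 4.94 to 5.09 in embryos, and *vit-2*, *vit-5* and *spe-11* lay at foreign control level in both. The cre hybridisation control was at 11.33 ± 0.08 in L1 and 4.62 ± 0.09 in embryos (SD, n = 3), and the 3′ minus 5′ difference of GAPDH was 0.63 ± 0.17 and 1.38 ± 0.46. The same difference was 1.78 ± 0.24 and 1.80 ± 0.23 for actin, and 5.12 ± 0.15 and 4.88 ± 0.24 for ubiquitin. The part of these array differences in the results was not tested.

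In fed L1, 23 of the 43 genes were higher, 9 were lower and 11 missed the threshold. The test was limma, a linear model with moderated variances fitted to all 17118 genes, at a Benjamini-Hochberg adjusted p under 0.05. Over all genes, 33.2% rose and 31.2% fell, 64.4% together, so that the share that rose was larger among these genes (53.5%) and the share that fell was smaller (20.9%). The median difference was 0.32 log2 units, against 0.05 over all genes. With every array centred on its ribosomal protein genes, which moved the median of all genes by -0.35, 16 of the 43 rose and 17 fell and their median was -0.04. That is 37.2% and 39.5%, against 22.8% and 56.6% of all genes on that scale, so the share that rose was again larger and the share that fell smaller. This centring takes the ribosomal protein genes as unchanged, although their mean was higher in L1 on the deposited scale. A gene called lower after it is lower relative to them. Differences of at least 2-fold that passed were found for 19 genes, 14 up and 5 down, against 34.4% of all genes. For 35 of the 43 genes the L1 values lay wholly above or below the embryo values, as they did for 70.6% of all genes. Nothing in the labels makes the replicates separate cultures, so the p-values measure only the spread between these arrays, which may be technical. Median SDs between arrays of a stage were 0.12 in L1 and 0.13 in embryos for these genes, and 0.11 and 0.12 for all genes.

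**Figure D1:**
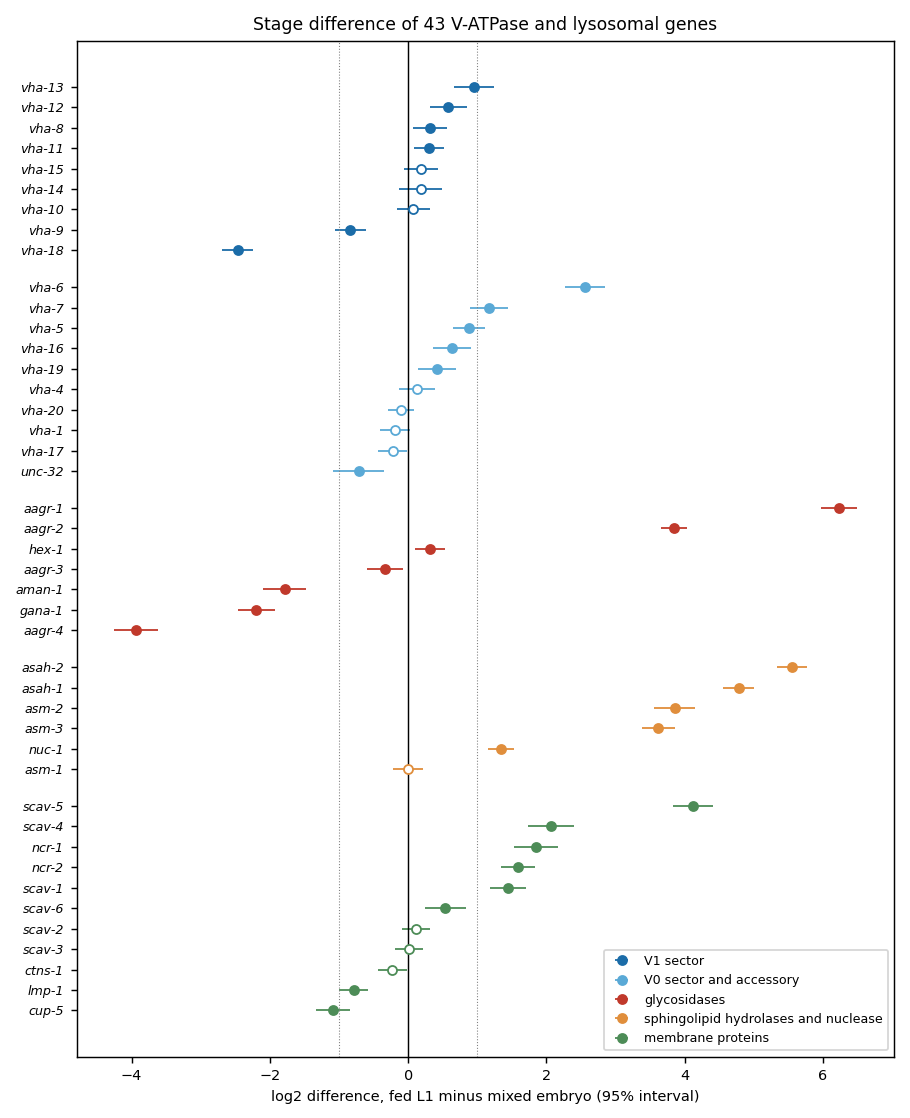
Each point is 1 gene's log2 difference, fed L1 minus mixed embryo (3 arrays each), with limma's 95% interval, and open points did not pass. V-ATPase genes other than *vha-6*, *vha-7* and *vha-18* lie within 1 log2 unit of 0 (dotted lines) in the probe sets and on the scale shown, while the hydrolases run from -3.94 to 6.23.

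The size of the differences varied by role. Among the 19 V-ATPase genes 9 rose and 3 fell, 7 missed the threshold, and 16 lay within 2-fold, which was true of 65.6% of all genes. None of these 19 lay at foreign control level in a stage, unlike 6904 of all genes in embryos and 6501 in L1. Values for all genes here are therefore not from genes of like level. The 13 genes outside the a and H subunits all lay within 2-fold, between -0.84 and 0.95, in the probe sets used. In 4 of the alternatives run 12 of these 13 did, with *vha-9* at -1.19 after centring on ribosomal protein genes and *vha-13* at 1.07 after another quantile normalization, 1.01 with array weights and 1.11 without L1 replicate 2. With probe sets designed for 1 gene alone, 4 of 5 did. The median absolute difference was 0.41 for V-ATPase genes, 3.62 for the 13 hydrolase genes, 1.09 for the 11 membrane protein genes and 0.54 for all genes. As a share, 47.4% of the V-ATPase genes rose and 15.8% fell, against 33.2% and 31.2% of all genes. Centring on ribosomal protein genes lowered the difference of every gene alike and left 4 V-ATPase genes up (21.1%) and 7 down (36.8%). Beside these stand the 22.8% and 56.6% of all genes, and a fall on that scale is relative to ribosomal protein genes. After centring on array medians 7 rose (36.8%, against 30.1% of all genes) and 5 fell (26.3% against 33.3%).

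The V1 sector had 4 of 9 genes up (44.4%, against 33.2% of all genes) and 2 down (22.2% against 31.2%), and its median was 0.19. After centring on ribosomal protein genes 1 rose (11.1% against 22.8%) and 3 fell (33.3% against 56.6%). The catalytic A subunit gene *vha-13* read 11.15, 10.70 and 11.15 on the L1 arrays and 10.13, 9.96 and 10.05 on the embryo arrays. It was higher on every L1 array, by 0.95 (SE 0.13, limma adjusted p = 7.19e-05, n = 3 per stage). This value belongs to a probe set whose design allows matches to related sequences, and its other probe sets gave -0.08 and -2.001, the latter with 7.08 to 7.70 in L1 and 9.17 to 9.41 in embryos. The direction of *vha-13* is therefore not settled by these arrays.

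The nucleotide-binding B subunit gene *vha-12* had L1 values of 11.78, 11.34 and 11.72 and embryo values of 11.02, 11.07 and 11.005. It rose by 0.58 (SE 0.12, limma adjusted p = 0.00152) and did not pass after centring on ribosomal protein genes (0.23). The C subunit gene *vha-11* and the E subunit gene *vha-8* rose by 0.30 and 0.32 (limma adjusted p = 0.0191 and 0.0279). The call of *vha-11* was lost without L1 replicate 1 (0.28) or 3 (0.28), without embryo replicate B (0.24) or C (0.30) and after centring on array medians (0.23). That of *vha-8* was lost without L1 replicate 1 (0.26) or 3 (0.28), without embryo replicate C (0.25) and after centring on array medians (0.25). After centring on ribosomal protein genes these differences were -0.053 for *vha-11* and -0.036 for *vha-8*. A second probe set for *vha-11* gave a larger difference of 1.04. Of the subunits of the central and peripheral stalks, the D subunit gene *vha-14* differed by 0.18 (95% interval -0.13 to 0.49; its other probe set 0.43) and the G subunit gene *vha-10* by 0.08 (-0.16 to 0.31), and neither passed. *vha-14* passed as higher without embryo replicate B (0.35) and as the mean of its probe sets (0.30), and *vha-10* passed as lower after centring on ribosomal protein genes (-0.28). The F subunit gene *vha-9* read 11.19, 10.91 and 10.94 in L1 against 11.83, 11.81 and 11.91 in embryos. It fell by 0.84 (SE 0.10, limma adjusted p = 2.75e-05).

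Of the V1 genes, *vha-18* changed most. The H subunit, which links V1 to V0 and regulates the pump, has 2 genes, *vha-15* and *vha-18*. On the L1 arrays *vha-18* read 6.26, 6.27 and 6.30, and on the embryo arrays 8.93, 8.64 and 8.66. No array overlapped, and *vha-18* fell by 2.46 log2 units, a 5.52-fold lower level (SE 0.10, limma adjusted p = 5.99e-09). The L1 values remained above 5.43, the highest value of 32 control probe sets for foreign transcripts of bacteria and yeast, which serves here as the background level. *vha-15* read 9.85, 9.67 and 9.84 in L1 and 9.40, 9.64 and 9.75 in embryos. These values overlapped, and the difference of 0.19 (95% interval -0.06 to 0.44) did not pass, though it did after another quantile normalization (0.33).

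The V0 sector with its accessory proteins had 5 of 10 genes up and 1 down, and its median was 0.27. After centring on ribosomal protein genes 3 rose and 4 fell. The changes were largest among the genes of the a subunit, the membrane protein through which protons reach and leave the ring. *vha-6*, known for the apical membrane of the intestine, had 10.92, 11.06 and 10.87 on the L1 arrays and 8.12, 8.63 and 8.42 on the embryo arrays. It was higher on every L1 array, by 2.56 log2 units or 5.89-fold (SE 0.13, limma adjusted p = 3.27e-08). *vha-7*, known from the epidermis, read 9.16, 9.02 and 9.31 in L1 and 8.24, 7.88 and 7.88 in embryos. Its rise of 1.16 (SE 0.12, limma adjusted p = 1.05e-05) was about a 2.24-fold difference with no overlap. *vha-5*, known from the excretory canal and the epidermis, read 8.82, 8.71 and 8.75 in L1 and 7.69, 7.93 and 8.02 in embryos. It rose by 0.88 (SE 0.10, limma adjusted p = 2.47e-05), again with no overlap.

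The fourth a subunit gene moved the other way. *unc-32*, known for its function in the nervous system and used in other tissues as well, read 9.65, 9.05 and 9.48 in L1 and 9.83, 10.25 and 10.25 in embryos. It was lower on every L1 array, by a difference of -0.72 (SE 0.17, limma adjusted p = 0.00311), and L1 replicate 2 was the lowest. The change of *vha-6* exceeded that of *unc-32* by 3.28 (SE 0.24), that of *vha-5* by 1.68 (SE 0.13) and that of *vha-7* by 1.39 (SE 0.30). *vha-7* and *vha-5* changed more than *unc-32* by 1.88 (SE 0.29) and 1.599 (SE 0.16). In these 5 of the 6 pairs the within-array differences did not overlap between stages, and a 2-sided exact permutation of array labels gave p = 0.1, the smallest value that 3 against 3 arrays allow, and 0.12 adjusted over the 6 pairs. *vha-7* and *vha-5* differed by 0.28 (SE 0.23, exact p = 0.3), with overlap. The test therefore cannot call any of these pairs at 0.05.

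**Figure D2:**
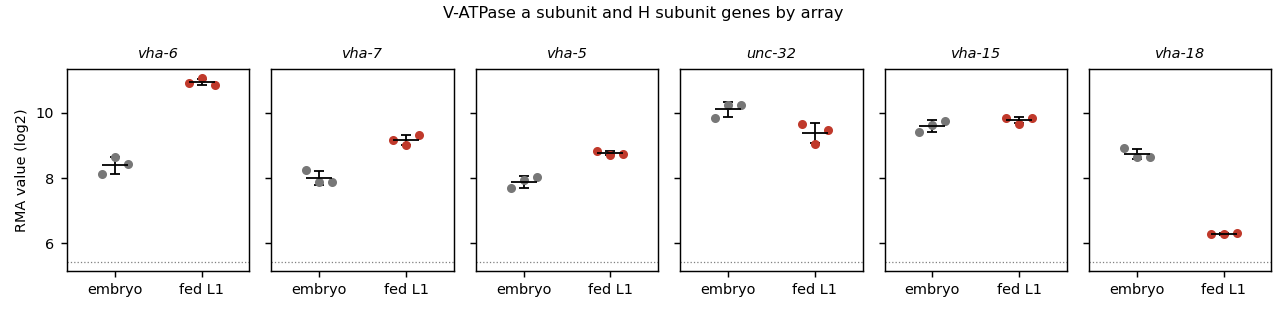
Points are RMA values (log2) of single arrays for the 4 a subunit and 2 H subunit genes, with bars at the mean and SD of 3 arrays and a dotted line at the background level of 5.43. *vha-6*, *vha-7* and *vha-5* are higher and *unc-32* and *vha-18* lower on every L1 array, while *vha-15* overlaps.

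Markers were tested for the intestine, the excretory canal and the nervous system, but not for the epidermis. Of 6 intestine markers, 5 rose (*pept-1* by 3.03, *ges-1* by 2.41, *ifb-2* by 2.36, *act-5* by 1.57 and *elt-2* by 1.03) and *elt-7* differed by 0.04 without passing. Their per-array means were 9.73 to 9.82 in L1 and 7.95 to 8.15 in embryos. Of 4 excretory canal markers, *aqp-8* and *exc-4* rose (*exc-4* not after centring on ribosomal protein genes), *exc-9* fell and *ceh-6* did not pass, with means of 8.08 to 8.27 and 7.09 to 7.31, and *aqp-8* lay at foreign control level in embryos. Of 4 nervous system markers 3 rose and *snb-1* did not pass, with means of 10.47 to 10.57 in L1 and 9.25 to 9.49 in embryos, while *unc-32* fell. The part of tissue content in the differences of the a subunit genes was not tested.

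The c ring of V0, whose proteolipid subunits carry the protons, showed small differences. *vha-1* read 11.11, 11.37 and 11.20 in L1 and 11.39, 11.47 and 11.39 in embryos. The difference of -0.19 (95% interval -0.41 to 0.02, limma adjusted p = 0.104) did not pass, although its other probe set gave -0.49 and passed. It passed as lower without L1 replicate 2 (-0.27), as the mean of its probe sets (-0.34) and after centring on array medians (-0.26) or ribosomal protein genes (-0.55). The 4 probe sets that name both *vha-2* and *vha-3* gave differences of -0.33, -0.18, -0.05 and 0.19, of which only -0.33 passed over all probe sets (limma adjusted p = 0.0265), and they cannot separate these genes. The probe set that passed read 9.36, 9.58 and 9.21 in L1 and 9.80, 9.73 and 9.61 in embryos. The one that gave -0.05 read 12.97, 12.94 and 12.93 against 13.07, 13.07 and 12.87, with overlap. The gene of the related c″ subunit, *vha-4*, read 10.90, 10.72 and 10.95 in L1 and 10.52, 10.74 and 10.93 in embryos. These values overlapped, and the difference of 0.13 (95% interval -0.14 to 0.39) did not pass. The d subunit gene *vha-16*, whose product joins the ring to the central stalk, rose by 0.63 (SE 0.12, limma adjusted p = 0.000931), but it did not pass after centring on ribosomal protein genes (0.28). The e subunit gene *vha-17* differed by -0.22 (-0.43 to -0.01) and did not pass, but passed as lower without embryo replicate A (-0.28), with array weights (-0.24) and after centring on array medians (-0.29) or ribosomal protein genes (-0.57). The accessory subunit gene *vha-19* rose by 0.41 (limma adjusted p = 0.0128), which became 0.06 after centring on ribosomal protein genes and did not pass without L1 replicate 1 (0.32) or without replicate 3 (0.37). The other accessory gene, *vha-20*, differed by -0.10 in the probe set used, which did not pass, and by 0.30 in another, and passed as lower after centring on ribosomal protein genes (-0.45).

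The spread within L1 had a direction in these genes. L1 replicate 2 was the lowest of the L1 arrays for 13 of the 19 V-ATPase genes and for 29 of all 43 genes, or 67.4%, against 32.6% of all genes. Its median offset from the other L1 arrays was -0.15 for the 43 genes and 0.01 for all genes. Without this array 22 genes rose and 9 fell. Embryo replicate A was the lowest of its stage for 51.2% of the 43 genes and 41.4% of all genes.

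Among the hydrolases, the 7 glycosidase genes split, with 3 up (42.9%, against 33.2% of all genes) and 4 down (57.1% against 31.2%). *aagr-1*, an acid alpha-glucosidase related gene, showed the largest rise of the 43. Its L1 arrays read 11.84, 11.92 and 11.93 and its embryo arrays 5.80, 5.40 and 5.78. The embryo values lie near the background level, which 1 of these arrays did not exceed. The rise was 6.23 log2 units or 75.2-fold (SE 0.12, limma adjusted p = 7.17e-11), a difference above that of 99.93% of all genes. *aagr-2*, of the same family, read 11.82, 11.76 and 11.90 in L1 and 8.00, 7.95 and 7.99 in embryos. It rose by 3.85, a 14.4-fold difference (SE 0.08, limma adjusted p = 1.37e-10).

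The remaining members of that family went down. *aagr-4* read 5.55, 5.04 and 5.54 in L1, with 1 array at the background level, and 9.19, 9.41 and 9.35 in embryos. Its measured difference of -3.94 (SE 0.14, limma adjusted p = 2.53e-09) was the lowest of the 43 genes. The L1 mean of 5.38 lies under the background level of 5.43, so the size of this fall is uncertain. *aagr-3* fell by 0.34 (limma adjusted p = 0.0259; -0.69 in its other probe set), a call lost after another quantile normalization (-0.19) and without L1 replicate 2 (-0.34), L1 replicate 3 (-0.29), embryo replicate A (-0.23) or embryo replicate C (-0.35). The *aagr* genes thus ranged from -3.94 to 6.23 between stages.

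The other glycosidase genes, of different families, were *gana-1* and *aman-1*, which fell, and *hex-1*, which rose. *gana-1*, whose product removes alpha-galactose and alpha-N-acetylgalactosamine, read 6.77, 6.65 and 6.75 in L1 and 8.66, 9.02 and 9.08 in embryos. The difference was -2.19 (SE 0.12, limma adjusted p = 5.01e-08), 4.58-fold lower, with no overlap. The lysosomal alpha-mannosidase gene *aman-1* had 5.24, 5.01 and 5.43 in L1 and 6.79, 7.22 and 7.04 in embryos, a difference of -1.79 (SE 0.14, limma adjusted p = 8.41e-07). With 2 of its L1 arrays at the background level and the other just above it, the size of this fall is uncertain. The beta-hexosaminidase gene *hex-1* rose by 0.32 (limma adjusted p = 0.0136), but its other probe set gave 0.12 and did not pass, and it did not pass without L1 replicate 2 (0.27) and turned to -0.035 after centring on ribosomal protein genes.

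Sphingolipid hydrolases and a nuclease accounted for 6 genes, of which 5 rose (83.3%, against 33.2% of all genes) and 0 fell (against 31.2%), and their median was 3.74. The acid ceramidase genes, whose products split ceramide into sphingosine and a fatty acid, rose most. *asah-1* read 10.62, 10.85 and 10.54 in L1 and 5.86, 5.90 and 5.91 in embryos. It rose by 4.78 or 27.5-fold (SE 0.10, limma adjusted p = 1.10e-10). *asah-2* read 10.67, 10.61 and 10.70 in L1, while its embryo values of 5.03, 5.28 and 5.01 all lay at the background level. The measured difference was 5.55 (SE 0.10, limma adjusted p = 6.62e-11), and against the background level *asah-2* was at least 37.5-fold higher in L1.

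Acid sphingomyelinase, which makes ceramide from sphingomyelin, is encoded by *asm-1*, *asm-2* and *asm-3*, and these did not move together. *asm-2* read 8.27, 7.88 and 8.35 in L1 and 4.17, 4.40 and 4.36 in embryos, and *asm-3* 8.29, 8.48 and 8.22 against 4.64, 4.63 and 4.87. Both lay at background on all embryo arrays and were at least 6.65-fold and 7.46-fold higher in L1 (differences of 3.85 and 3.62, limma adjusted p = 1.75e-09 and 6.59e-10). *asm-1* read 8.32, 8.41 and 8.33 in L1 and 8.51, 8.21 and 8.34 in embryos. Its difference was 0.0007 (95% interval -0.22 to 0.22, limma adjusted p = 0.996), and the values of the stages overlapped. Centred on ribosomal protein genes, *asm-1* passed as lower (-0.35). *nuc-1*, the DNase II gene whose enzyme degrades DNA of dead cells and of bacteria in the gut, read 11.60, 11.46 and 11.57 in L1 and 10.16, 10.19 and 10.25 in embryos. It rose by 1.34 (SE 0.09, limma adjusted p = 1.96e-07), a 2.54-fold difference.

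**Figure D3:**
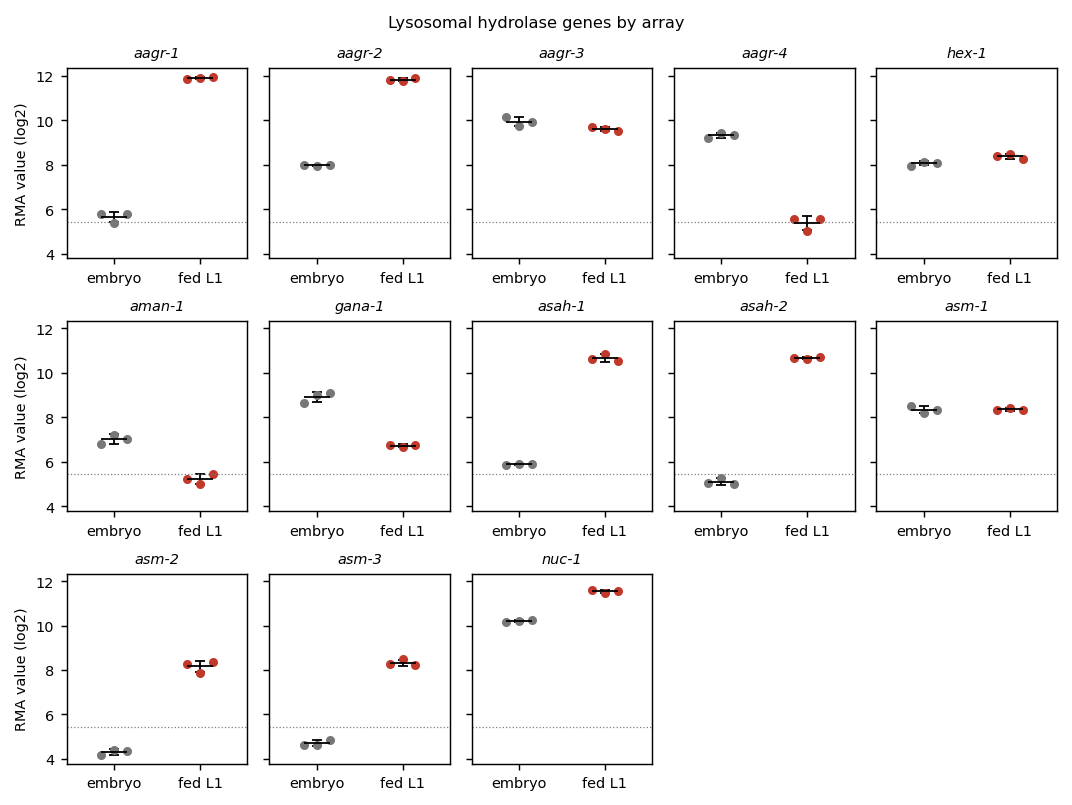
Points are RMA values (log2) of single arrays for the 13 hydrolase genes, with bars at the mean and SD of 3 arrays and a dotted line at the background level of 5.43. Embryo arrays of *asah-2*, *asm-2* and *asm-3* lie at or under that line, and *aagr-4* and *aman-1* are near it in L1.

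Membrane proteins accounted for 11 genes, of which 6 were higher (54.5%, against 33.2% of all genes) and 2 lower (18.2% against 31.2%), and their median was 0.54. After centring on ribosomal protein genes 5 rose (45.5% against 22.8%) and 5 fell (45.5% against 56.6%). The *scav* genes encode scavenger receptors of the CD36 and LIMP-2 family, which bind lipids and lysosomal enzymes in other animals. *scav-5* read 9.78, 10.09 and 10.03 in L1 and 5.94, 5.60 and 6.01 in embryos, a rise of 4.12 or 17.4-fold (SE 0.13, limma adjusted p = 1.01e-09). Its probe set can match related sequences, and the other one gave 2.19 (SE 0.13). That other probe set read 6.70, 6.48 and 6.18 in L1 and 4.31, 4.34 and 4.13 in embryos. These embryo values all lie under the background level, so the size of its rise is uncertain. *scav-4* read 8.48, 8.14 and 8.64 in L1 and 6.10, 6.47 and 6.49 in embryos, and rose by 2.06 (SE 0.15, limma adjusted p = 4.79e-07).

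The other scavenger receptor genes changed less. *scav-1* rose by 1.44 (L1 9.17 to 9.42, embryos 7.66 to 8.05), and *scav-6* by 0.54 (L1 7.18 to 7.56, embryos 6.70 to 7.10), the latter not passing after centring on ribosomal protein genes (0.19). *scav-3*, known for keeping lysosomes intact, differed by 0.01 (95% interval -0.20 to 0.21) and *scav-2* by 0.11 (-0.09 to 0.32), both with overlap and without passing. Both passed as lower after centring on ribosomal protein genes (-0.35 and -0.24).

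Both genes of the Niemann-Pick C1 family, whose proteins export cholesterol from lysosomes, rose. *ncr-1* read 9.09, 8.65 and 8.87 in L1 and 6.80, 7.25 and 6.998 in embryos, a rise of 1.86 (SE 0.14, limma adjusted p = 7.95e-07). *ncr-2* read 6.60, 6.19 and 6.37 in L1 and 4.73, 4.83 and 4.84 in embryos, where all arrays were at background, so that it was at least 1.94-fold higher (difference 1.59, SE 0.11).

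The 11 genes also hold *cup-5*, *lmp-1* and *ctns-1*, of which the first and second fell. *cup-5*, which encodes the mucolipin cation channel needed for lysosome formation, read 6.999, 6.71 and 6.92 in L1 and 8.12, 7.94 and 7.83 in embryos. It fell by 1.09 (SE 0.11, limma adjusted p = 8.14e-06), with no overlap. *lmp-1*, the LAMP-like glycoprotein gene, read 11.77, 11.55 and 11.68 in L1 and 12.42, 12.38 and 12.56 in embryos. It fell by 0.79 (SE 0.10, limma adjusted p = 3.08e-05), and its other probe set gave -0.57. The cystine transporter gene *ctns-1* differed by -0.23 (95% interval -0.44 to -0.01, limma adjusted p = 0.0595) and did not pass, although its arrays did not overlap. It passed as lower after centring on array medians (-0.29) or ribosomal protein genes (-0.58), with array weights (-0.28) and without embryo replicate A (-0.29).

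**Figure D4:**
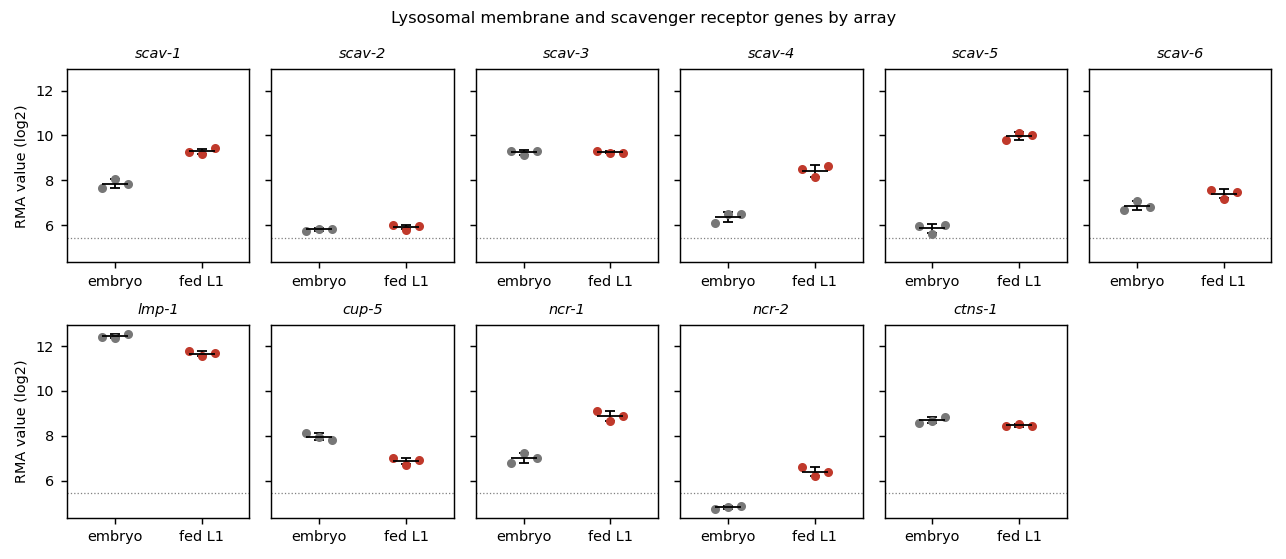
Points are RMA values (log2) of single arrays for the 11 genes of lysosomal membrane proteins and scavenger receptors, with bars at the mean and SD of 3 arrays and a dotted line at the background level of 5.43. *scav-5*, *scav-4*, *ncr-1* and *scav-1* are over 2-fold higher in L1, *cup-5* is 2.12-fold lower, and *scav-2* and *scav-3* overlap.

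Several genes were read by more than 1 probe set. Of 9 such genes, the probe sets of *vha-13* and *vha-20* differed in sign, and those of *vha-13* and *scav-5* were over 1 log2 unit apart. For *scav-5* the smaller difference came from the probe set at background in embryos. The probe sets used for 26 of the 43 genes have a design that allows matches to related sequences. For the 20 genes with a probe set designed for that gene alone, 10 rose and 5 fell.

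**Figure D5:**
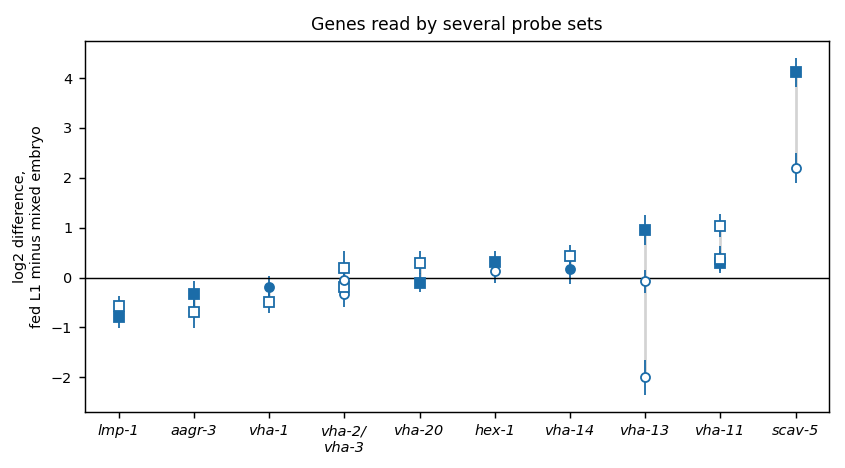
Each point is 1 probe set's log2 difference, fed L1 minus mixed embryo, with limma's 95% interval, for genes with several probe sets and for the probe sets shared by *vha-2* and *vha-3*. Filled points were used, squares may match related sequences, and *vha-13* spans -2.001 to 0.95.

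Other genes of the lysosome were taken from lists chosen by function, with earlier results of these data known, so their shares are a description and not a test. In these lists 64 of 70 genes had a probe set of their own. Of these, 30 rose (46.9%, against 33.2% of all genes) and 23 fell (35.9% against 31.2%), and the median was 0.17. After centring on ribosomal protein genes 19 rose (29.7% against 22.8%) and 30 fell (46.9% against 56.6%), where a fall is relative to those genes. The list of other hydrolases had 14 of 22 genes up (63.6% against 33.2%) and 6 down (27.3% against 31.2%). After that centring 11 were up (50.0% against 22.8%) and 8 down (36.4% against 56.6%). Its largest rises were in the lipase gene *lipl-5* (a measured difference of 4.80, at background on all embryo arrays, so at least 27.0-fold) and the carboxypeptidase gene *pcp-3* (4.00), and its largest falls in the palmitoyl-protein thioesterase gene *ppt-1* (-2.99) and the aspartyl protease gene *asp-4* (-1.495). In this list *lipl-3*, *lipl-4* and *lipl-8* lay at background in both stages. The count of *lipl-3* as higher, and of *lipl-4* and *lipl-8* as lower after that centring, is limited by this. *lipl-6*, counted as lower, was at background on all L1 arrays and had a mean of 5.41 in embryos. All 4 gut granule genes rose, against 33.2% of all genes, *glo-4* by 1.19 and *glo-3* by 1.13 the most. Of these 4, *pgp-2* (0.64) did not pass after that centring (0.29). Of 10 transporter and membrane genes 7 rose, or 3 after that centring, among them the spinster-like transporter gene *spin-1* (2.96) and *cln-3.3* (2.40), a homologue of the human Batten disease gene. The amino acid transporter gene *laat-1* (-0.76) and the chloride channel gene *clh-6* (-0.58) fell.

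Among 13 genes that deliver cargo to lysosomes 8 fell (61.5%, against 31.2% of all genes) and 2 rose (15.4% against 33.2%), and the median was -0.37. These shares, too, only describe a list chosen with earlier results known. After another quantile normalization 6 fell and 2 rose, and after centring on ribosomal protein genes 9 fell (69.2% against 56.6%) and 0 rose. *vps-39*, of the HOPS tethering complex, changed by -1.597 and *apm-3*, of the AP-3 adaptor, by -1.42, while *vps-41* and *vps-34* rose by 0.32 and 0.31, rises that turned to -0.034 and -0.045 after centring on ribosomal protein genes. Among 12 genes of nutrient signalling on the lysosome, 6 fell (50.0%, against 31.2% of all genes) and 2 rose (16.7% against 33.2%). After that centring 9 fell (75.0% against 56.6%) and 2 rose (16.7% against 22.8%). Those that rose were transcription factors, *hlh-30* (the TFEB homologue, by 1.05) and *mxl-3* (by 2.05). The largest falls were in the folliculin gene *flcn-1* (-1.06) and the Ragulator gene *lmtr-2* (-0.96). Outside the rule, the second B subunit gene of the V-ATPase, *spe-5*, fell by 0.70, and of the rabconnectin genes *rbc-1* rose by 0.41 (0.057 and not passing after that centring) and *rbc-2* did not pass (0.17).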

How the data were processed

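The authors deposited log2 values, 1 per probe set and array, made with RMA, per the submitters' processing notes. Neither the RMA version nor a joint normalization of the 6 arrays is stated in those notes or labels. RMA equalises distributions, so a change in total RNA per animal is not seen, and it compresses low values. Of 22625 probe sets, 77 controls were left out, and 20766 of the rest name 1 gene. The highest-mean probe set stood for each of 17118 genes. Groups came from sample titles. The fit used R 4.3.3 and limma 3.58.1 (lmFit and eBayes, 2-sided, Benjamini-Hochberg over all genes, no filter, no covariate), and SE is the moderated standard error. It was tested on simulated data. The number of arrays, 3 per stage, limits the precision. The genes and lists were chosen with earlier results of these data known. Values on every array are given for all a and H subunit genes, *vha-1*, *vha-4* and, in each role group, for the 2 largest passing changes in the main direction and 1 in the opposite direction. Of the other lysosome lists the 2 largest passing changes each way are named. Further genes given by array were chosen after their values were seen. Alternatives were another quantile normalization, centring on array medians or ribosomal protein genes, a filter at the 25th percentile of level, trend and robust eBayes, array weights, other probe set choices, an adjusted p under 0.01 and leaving out each array. Promoter motifs and sequences were not analysed here.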

Additional observations from a re-analysis of the deposited data

How the results depend on the processing

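Of 32 genes called, 23 kept their direction and call under all 15 alternatives that could measure them, and 4 (*vha-8*, *vha-11*, *vha-13* and *hex-1*) changed direction in at least 1. The number of the 43 genes that rose was 16 to 24 and the number that fell 8 to 17 under alternatives other than dropping probe sets that may match related sequences, which left 20 genes, 10 up and 5 down. Centring on ribosomal protein genes gave 16 up and 17 down, with 9686 of all genes lower and a median of -0.036 for the 43. The median was 0.42 after another quantile normalization. Leaving out 1 array gave 20 to 23 rising and 8 to 10 falling genes, a median of 0.28 to 0.36, and 5326 to 5522 rising and 5084 to 5365 falling genes over all. Centring on ribosomal protein genes turned *asm-1* to -0.35, *scav-2* to -0.24, *scav-3* to -0.35, *vha-4* to -0.23, *vha-10* to -0.28, *vha-14* to -0.17, *vha-15* to -0.16, *vha-8* to -0.036, *vha-11* to -0.053 and *hex-1* to -0.035, of which *asm-1*, *scav-2*, *scav-3* and *vha-10* passed as lower. Centring on array medians turned *asm-1* to -0.066 and *scav-3* to -0.060. As the mean of probe sets *vha-13* was -0.38 and *vha-20* 0.10, and with probe sets for 1 gene alone *vha-13* was -2.001. Leaving out 1 array gave -0.071 to 0.077 for *asm-1*, -0.055 to 0.041 for *scav-3* and -0.0022 to 0.17 for *vha-10*. The cause of these shifts was not tested. The a subunit pairs kept their direction in each alternative run, with *vha-6* above *unc-32* by 3.05 to 3.42; *unc-32*, *vha-6* and *vha-7* have no probe set for 1 gene alone. No paired analysis was possible because L1 replicates carry numbers and embryo replicates letters. Signal limits *asah-2*, *asm-2*, *asm-3* and *ncr-2*, at background on all embryo arrays, to lower bounds, and leaves the size of the changes of *aagr-1*, *aagr-4* and *aman-1*, at background on some arrays, uncertain.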
